A study of Mus musculus with 24 samples.

Results

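Semaphorins, plexins, neuropilins, Eph receptors and ephrins are the guidance cues and receptors through which neighbouring cells attract and repel each other, and they were described here across the cell classes, neuron families and neuron populations of the adult mouse spinal cord. The members were all rows of the deposited count matrix whose symbol begins with Sema or Plxn, is Nrp1 or Nrp2, or is Epha, Ephb, Efna or Efnb followed by a number. This gave 56 of 32962 rows: 20 semaphorins, 9 plexins, 2 neuropilins, 14 Eph receptors, 8 ephrins and 3 antisense rows (Plxna4os1, Plxna4os2 and Plxna4os3) that the name rule also takes in.

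Semaphorins are secreted or membrane-bound ligands. Most act through plexins, and the secreted class 3 semaphorins usually need a neuropilin to bind first; active plexins act on the cytoskeleton. Eph receptors form the largest family of receptor tyrosine kinases and bind ephrins on the surface of adjacent cells, with signals running both ways: EphA receptors mainly bind ephrin-As, which are held by a lipid anchor, and EphB receptors mainly bind ephrin-Bs, which span the membrane. In the developing spinal cord these cues steer commissural, motor and sensory axons, and in blood vessels the same families shape branching and the border between arteries and veins.

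The study profiled nuclei of the lumbar cord of ICR/CD-1 mice of both sexes, 8 to 11 weeks old, by Drop-seq, which gives every captured transcript a unique molecular identifier (UMI). It held 9 control mice, 10 mice given 30 µl of 2% paraformaldehyde in each hindpaw (formalin mice) and 5 mice walking a rotarod whose speed rose to 40 rotations per minute within 5 minutes (rotarod mice); the stimulated mice were first habituated for 1 hour. The titles of control replicates 7 to 9 end in cx, which the labels do not explain, and the sources used here do not give the time from stimulus to collection. All animals were of this outbred stock with no stated allele or drug, dorsal root ganglia were removed, each library was 1 mouse by the design text, and the labels name the tissue as brain although the protocol and title name spinal cord.

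The file held 750 barcodes per mouse, with 549903 to 3243587 UMIs per mouse. The authors' annotation put 13425 of 18000 nuclei in 7 classes, discarded 3818 and left 757 without a label. There were 7103 neurons, 727 endothelial or vascular nuclei, 1839 meningeal or Schwann nuclei and, among glia, 2184 oligodendrocytes with 183 precursors, 1224 astrocytes and 165 microglia. The endothelial class carried both endothelial markers (15009.9 CPM summed over 8 genes) and pericyte markers (4217 CPM over 5 genes), and the meningeal or Schwann class carried Schwann, meningeal and ependymal markers (5202, 1791 and 863 CPM), so each is a mixture. The microglia class held oligodendrocyte markers at 5905 ± 2773 CPM beside 4004 ± 3071 CPM of its own. Neuron markers summed to 40420 CPM in neurons and to 6768 to 19298 CPM in the other classes. At most 4 barcodes were shared by a pair of libraries.

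Levels are CPM, a gene's UMIs per 1000000 UMIs of the same nuclei, given as mean ± SD over the control mice that had 5 or more such nuclei: 9 mice for every class except precursors (7 mice, 64 nuclei) and microglia (6 mice, 39 nuclei). A CPM is a share of a class's RNA. It is compared here between cell types or groups of mice, for 1 gene or for the sum of a fixed set of rows. Levels of different genes are not compared, since transcript length and intron content differ between genes. A sum is weighted toward its genes with the most UMIs.

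A set of 6 members whose level was highest in 1 non-neuronal class are shown with their promoters, since members that share a class can be set side by side: Sema3c, Sema7a, Nrp1 and Plxnd1 were highest in endothelial or vascular nuclei, and Plxnb3 and Ephb1 in oligodendrocytes. The windows are RefSeq promoters on GRCm38.p6, 250 bases before to 50 bases after the start, written 5′ to 3′ on the gene's own strand, at chr5:17574566-17574865 (plus strand), chr9:57939862-57940161 (plus strand), chr8:128358823-128359122 (plus strand), chr6:115994956-115995255 (minus strand), chrX:73756853-73757152 (plus strand) and chr9:102354644-102354943 (minus strand). Capitals mark CAGGAA or CCGGAA, core letters bound by ETS factors, which are known for endothelial genes, and ACAAAG or ACAATG, core letters bound by SOX factors, which are known for oligodendrocyte genes; both strands were searched and no matches overlapped.
Sema3c: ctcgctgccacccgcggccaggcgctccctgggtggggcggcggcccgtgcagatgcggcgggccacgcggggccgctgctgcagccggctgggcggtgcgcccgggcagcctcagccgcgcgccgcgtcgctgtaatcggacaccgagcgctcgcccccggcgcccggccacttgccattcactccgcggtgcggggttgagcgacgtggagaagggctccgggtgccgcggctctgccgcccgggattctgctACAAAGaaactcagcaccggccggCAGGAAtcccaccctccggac
Sema7a: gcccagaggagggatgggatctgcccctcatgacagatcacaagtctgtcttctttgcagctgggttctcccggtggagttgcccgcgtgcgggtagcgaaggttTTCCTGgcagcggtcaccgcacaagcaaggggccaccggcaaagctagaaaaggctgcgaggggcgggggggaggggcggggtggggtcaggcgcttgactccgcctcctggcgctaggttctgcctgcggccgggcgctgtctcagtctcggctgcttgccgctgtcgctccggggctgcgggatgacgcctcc
Nrp1: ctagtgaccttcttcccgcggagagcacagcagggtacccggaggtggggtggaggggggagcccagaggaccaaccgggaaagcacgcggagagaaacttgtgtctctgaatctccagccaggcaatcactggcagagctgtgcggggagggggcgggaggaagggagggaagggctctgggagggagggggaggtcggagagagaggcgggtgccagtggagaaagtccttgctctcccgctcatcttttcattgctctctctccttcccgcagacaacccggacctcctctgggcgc
Plxnd1: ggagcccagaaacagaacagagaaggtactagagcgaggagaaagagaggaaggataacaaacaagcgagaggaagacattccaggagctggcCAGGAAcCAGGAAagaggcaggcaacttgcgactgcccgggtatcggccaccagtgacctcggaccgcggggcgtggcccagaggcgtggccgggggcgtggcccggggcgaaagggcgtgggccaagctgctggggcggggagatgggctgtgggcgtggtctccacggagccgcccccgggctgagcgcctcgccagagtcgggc
Plxnb3: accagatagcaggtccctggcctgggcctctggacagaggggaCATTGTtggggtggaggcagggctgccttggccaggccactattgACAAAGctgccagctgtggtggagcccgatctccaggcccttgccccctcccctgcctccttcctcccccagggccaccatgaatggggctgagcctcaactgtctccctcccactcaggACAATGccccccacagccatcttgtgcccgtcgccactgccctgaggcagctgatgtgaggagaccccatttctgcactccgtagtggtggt
Ephb1: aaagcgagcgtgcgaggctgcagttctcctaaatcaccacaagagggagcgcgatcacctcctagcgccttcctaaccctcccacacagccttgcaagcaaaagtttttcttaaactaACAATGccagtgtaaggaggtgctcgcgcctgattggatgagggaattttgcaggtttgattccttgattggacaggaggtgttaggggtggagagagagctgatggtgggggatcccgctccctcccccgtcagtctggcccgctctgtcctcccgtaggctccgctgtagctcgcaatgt

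An ETS pattern stood in the Sema3c and Sema7a windows and in 2 places of the Plxnd1 window, and none stood in the Nrp1 window. A SOX pattern stood in 3 places of the Plxnb3 window, once in the Ephb1 window and once in the endothelial Sema3c window. Such letters are common: either ETS pattern was found in 41.4% of 32851 promoters and either SOX pattern in 28.6%, and 20 and 14 of the 47 members with a promoter in the table held one. A match is a description of the sequence and not a site. Efnb3, another member highest in oligodendrocytes, has no entry in the table.

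RNA of the module was found in every class, with a different mix of roles. In the few precursors and microglia the 56 rows summed to 3738 ± 800 (n = 7) and 3394 ± 1954 CPM (n = 6). The 56 rows summed to 4934 ± 286 CPM in endothelial or vascular nuclei, 4609.9 ± 619.5 CPM in oligodendrocytes, 4475 ± 235 CPM in neurons, 3828 ± 246 CPM in meningeal or Schwann nuclei and 3454 ± 282 CPM in astrocytes. The Eph receptors summed to 1983 ± 130.2 CPM in neurons and 614 ± 78.1 CPM in endothelial nuclei. The semaphorins ran the other way, with 2583 ± 336 CPM in endothelial nuclei, 2353 ± 439 CPM in oligodendrocytes and 1214 ± 108 CPM in neurons. The neuropilins were lowest in oligodendrocytes, at 65.0 ± 32.1 CPM against 859 ± 288 CPM in endothelial nuclei. The ephrin sum was highest in neurons at 396 ± 39.3 CPM, and the plexins ranged from 341 ± 92.8 CPM in astrocytes to 710.5 ± 250.2 CPM in endothelial nuclei among the classes seen in 9 mice. Single genes made up much of some sums. Efna5 alone gave 370 CPM of the ephrin sum in neurons, and no other ephrin had its highest mean there. Sema6d gave 1394 CPM of the semaphorin sum in oligodendrocytes.

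Of the 56 members, 43 reached a mean of 20 CPM in their highest class and 13 did not. Of those 43, 11 were highest in endothelial or vascular nuclei, 9 in meningeal or Schwann nuclei, 7 in neurons, 6 in astrocytes, 5 in oligodendrocytes, 3 in microglia and 2 in precursors. Over all genes at 20 CPM the same classes held 19.9%, 11%, 11.2%, 9.15%, 9.99%, 22.8% and 15.9%. Some of these placements rest on very few UMIs, such as Efna3 in microglia on 1 UMI. Efnb1 in astrocytes and Plxna3 in precursors rest on 2 UMIs each. In 6 members (Efna5, Ephb1, Plxna4, Sema3c, Sema6a and Sema7a) every control mouse of the highest class lay above every control mouse of the next class, which held for 4.01% of 11813 genes at 20 CPM. In Sema3c, Sema6a and Sema7a this held against all other classes, as it did for 2.71% of genes.

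**Figure D1:**
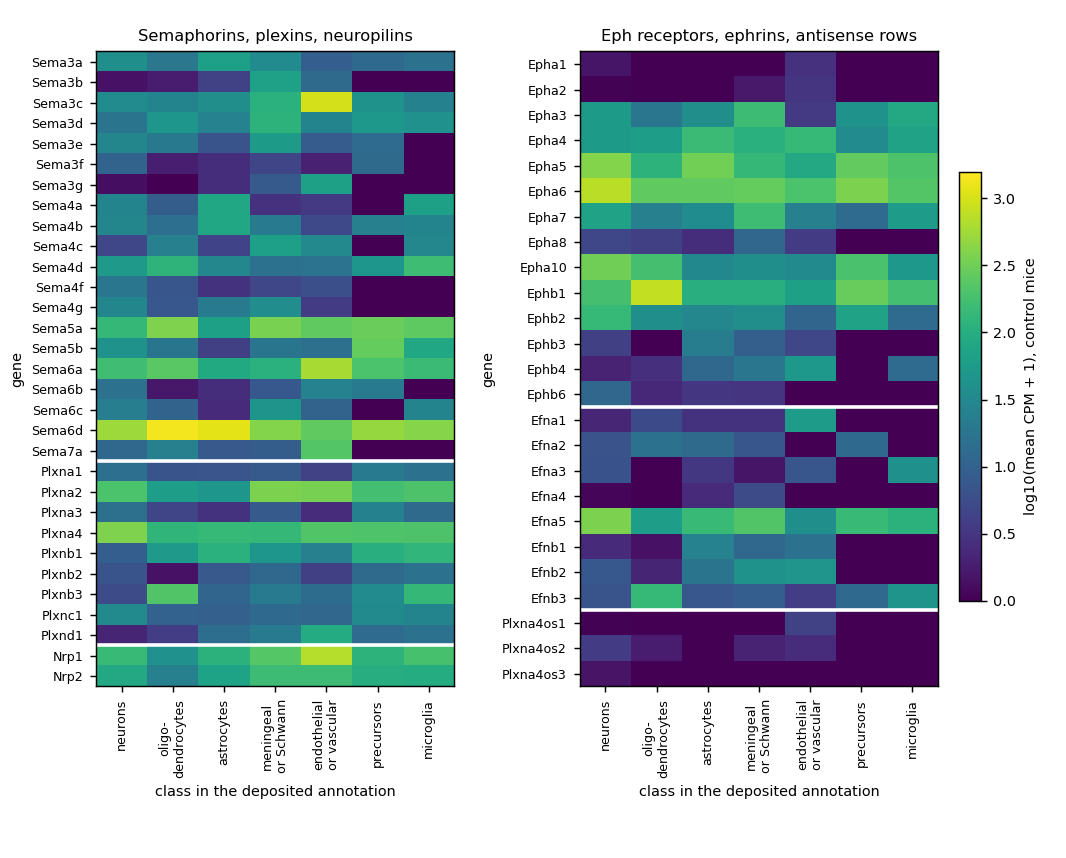
Mean level of each of the 56 rows (rows, grouped by role) in each class of the deposited annotation (columns), as log10(CPM + 1) over the control mice. Sema3c, Nrp1 and Sema6a are brightest in the endothelial or vascular column, Ephb1, Plxnb3 and Sema6d in the oligodendrocyte column and Epha5, Epha6, Epha10 and Ephb2 in the neuron column.

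Among the secreted semaphorins, endothelial or vascular nuclei carried Sema3c at a level that no other class approached. Sema3c, which binds either neuropilin and signals with Plxnd1 in vessels, stood in the control mice at lowest 723, median 906 and highest 1501 CPM in this class. Its level was 108 ± 81.8 CPM in meningeal or Schwann nuclei and 34.1 ± 10.2 CPM in neurons, and no mouse of any other class reached the lowest endothelial value. In formalin mice the endothelial level was 1033 ± 213 CPM (n = 10) and in rotarod mice 991 ± 143 CPM (n = 5), again the highest of the 7 classes in each group. The control difference from the mean of the other classes was 4.85 ± 0.20, adjusted p = 9.01e-46 on the log2 scale (edgeR). Sema3c passed the filter on low counts mainly through this class, so that p-value is no independent support.

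Sema3g, a class 3 ligand of arterial endothelium that binds Nrp2, was also highest there, at lowest 0, median 72.4 and highest 118 CPM, but rested on 39 UMIs and was 0 in 1 mouse. The next class was at 7.07 ± 7.56 CPM, and the endothelial class was again highest in formalin and rotarod mice. Meningeal or Schwann nuclei had the highest means of Sema3b, Sema3d and Sema3e. Sema3b, a ligand for neuropilins, stood at lowest 29.5, median 60.0 and highest 171 CPM and Sema3d, a repellent of class 3, at lowest 43.7, median 131 and highest 159.8 CPM; each overlapped another class over mice. Sema3e, which binds Plxnd1 without a neuropilin, was at 54.8 ± 30.4 CPM there and 28.5 ± 12.6 CPM in neurons. In the stimulated mice the Sema3d mean was higher in the few precursors than in the meningeal or Schwann class.

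Sema3a, the classical repellent that acts through Nrp1 and class A plexins, was highest in astrocytes, at lowest 13.3, median 63.4 and highest 121 CPM from 51 UMIs. Its neuronal level was 37.8 ± 8.31 CPM, within the astrocyte range, and in rotarod mice the meningeal or Schwann class was highest instead. Sema3f, the main ligand of Nrp2, stayed low, at 9.31 ± 2.44 CPM in neurons, although single neuron populations held more, as the population values show.

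Of the membrane-bound semaphorins, Sema7a and Sema6a marked endothelial or vascular nuclei. Sema7a, which is held by a lipid anchor and binds Plxnc1 and integrins, stood at lowest 109, median 197 and highest 376 CPM there. It was 23.8 ± 18.9 CPM in oligodendrocytes and had no UMI in precursors or microglia, so no fitted fold change is given. Its own lowest endothelial mouse lay above the highest mouse of every other class. Sema6a, a ligand of Plxna2 and Plxna4, stood at lowest 433, median 562 and highest 904 CPM against 239 ± 86.5 CPM in oligodendrocytes (2.27 ± 0.17, adjusted p = 3.7e-27, edgeR). Sema6b was at 25.4 ± 29.5 CPM there, with an SD larger than its mean.

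Sema6d, which binds Plxna1, and Sema5a, whose thrombospondin repeats set class 5 apart, were highest in oligodendrocytes without standing clear of the next class. Sema6d stood at lowest 906, median 1217 and highest 2304 CPM in oligodendrocytes and at lowest 339, median 1226 and highest 1901 CPM in astrocytes. Astrocytes were highest in both stimulated groups. The values of 2304 and 339 CPM both came from control replicate 9, which had under 10 nuclei in each class. The order of the 2 control means depends on that mouse. Against the mean of the other classes Sema6d was higher in both oligodendrocytes (1.30 ± 0.15, adjusted p = 1.95e-14) and astrocytes (1.54 ± 0.15, adjusted p = 5.34e-18, edgeR). Sema5a was at 381 ± 79.6 CPM in oligodendrocytes and 363 ± 123 CPM in meningeal or Schwann nuclei, and was lower in astrocytes (-1.85 ± 0.28, adjusted p = 1.09e-08). Sema5b, the other class 5 member, was highest in precursors, at lowest 0, median 239 and highest 892 CPM from 23 UMIs. Of 7 mice, 2 were at 0 (3.43 ± 0.49, adjusted p = 1.83e-08 with edgeR, and DESeq2 gave no adjusted p). Sema5b passed the filter on low counts mainly through precursors, so that p-value is no independent support.

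Class 4 semaphorins differed in the class where they were highest. Sema4b stood at lowest 0, median 86.9 and highest 133 CPM in astrocytes against 28.4 ± 7.75 CPM in neurons, and astrocytes were highest in all 3 groups of mice. Sema4a was at 81.6 ± 61.7 CPM in astrocytes. Sema4d, the ligand of Plxnb1, had its highest mean in microglia, 159.9 ± 129 CPM from 8 UMIs, while oligodendrocytes at 119 ± 52.5 CPM passed the test (1.82 ± 0.26, adjusted p = 8.35e-10), as did neurons at 52.8 ± 9.28 CPM (0.71, but -0.034 with DESeq2). Sema4c, a ligand of Plxnb2, was at 62.5 ± 36.1 CPM in meningeal or Schwann nuclei, as were Sema4g at 36.0 ± 24.7 and Sema6c at 43.9 ± 28.5 CPM. Sema4f was highest in neurons, at 17.1 ± 4.10 CPM.

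Nrp1 and Plxnd1, through which Sema3c acts, had their highest mean in the same class as Sema3c. Nrp1, which is also a co-receptor for VEGF-A, stood in endothelial or vascular nuclei at lowest 315, median 679.9 and highest 1163 CPM, and at lowest 0, median 239 and highest 509 CPM in meningeal or Schwann nuclei. The ranges overlapped over mice, and the difference from the mean of the other classes was 2.76 ± 0.19, adjusted p = 2.9e-24 (edgeR). Plxnd1, the endothelial plexin, was at 91.4 ± 66.6 CPM against 19.6 ± 16.5 CPM in the next class, and was too sparse for the test. Nrp2 had like means in endothelial (157 ± 146) and meningeal or Schwann nuclei (156 ± 34.2), and the endothelial spread was several times wider. Oligodendrocytes were low for both neuropilins (Nrp1 -2.71 and Nrp2 -1.91 on the log2 scale, both past the test).

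Plxnb3, a receptor for Sema5a, was an oligodendrocyte member: it stood there at lowest 0, median 232 and highest 350.0 CPM and at 4.35 ± 2.67 CPM in neurons. Control replicate 9, with under 10 oligodendrocyte nuclei, was the mouse at 0. Oligodendrocytes were highest in formalin (269 ± 58.1 CPM) and rotarod mice (181 ± 69.9 CPM), and the control difference was 3.43 ± 0.25, adjusted p = 2.08e-26 (edgeR). Plxnb3 passed the filter on low counts mainly through this class, so that p-value is no independent support. The microglia class also passed the test for Plxnb3 (2.65 ± 0.70, adjusted p = 0.00867) at 135 ± 185 CPM (n = 6). The same microglia nuclei carried the oligodendrocyte markers given above, whose part was not tested, and the log2 difference was -0.17 in stimulated mice. Without the cx mice, or without control replicate 2 or 7, the microglial call was lost.

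Plxna4, the class A plexin that binds Sema6a and serves Sema3a with Nrp1, had its highest control mean in neurons, at lowest 319, median 382 and highest 433 CPM, above every mouse of the next class, endothelial nuclei, at 213 ± 52.6 CPM (1.59 ± 0.13, adjusted p = 1.22e-22 in neurons, edgeR). Control microglia reached 699 CPM of Plxna4 in their highest mouse. In formalin mice its precursor mean, 472 ± 565 CPM, was above that of neurons, 357 ± 41.9 CPM. Plxna2 was spread, with 372 ± 95.2 CPM in meningeal or Schwann nuclei and 351 ± 227 CPM in endothelial nuclei, and both passed the test (log2 1.56 and 1.82). Plxnb1, the Sema4d receptor, was 110.0 ± 50.4 CPM in astrocytes (1.87 ± 0.28, adjusted p = 4.19e-09) and 8.16 CPM in neurons. The microglia mean of Plxnb1 was higher but rested on 5 UMIs. Plxnc1, the Sema7a receptor, was 32.2 ± 4.30 CPM in neurons and did not stand apart from precursors. Plxna1, Plxna3 and Plxnb2 had highest means of 19.3, 24.1 and 14.6 CPM in classes where they rested on at most 2 UMIs. The 3 Plxna4 antisense rows held 3, 31 and 6 UMIs in control mice and lie opposite Plxna4, whose reads they could share.

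**Figure D2:**
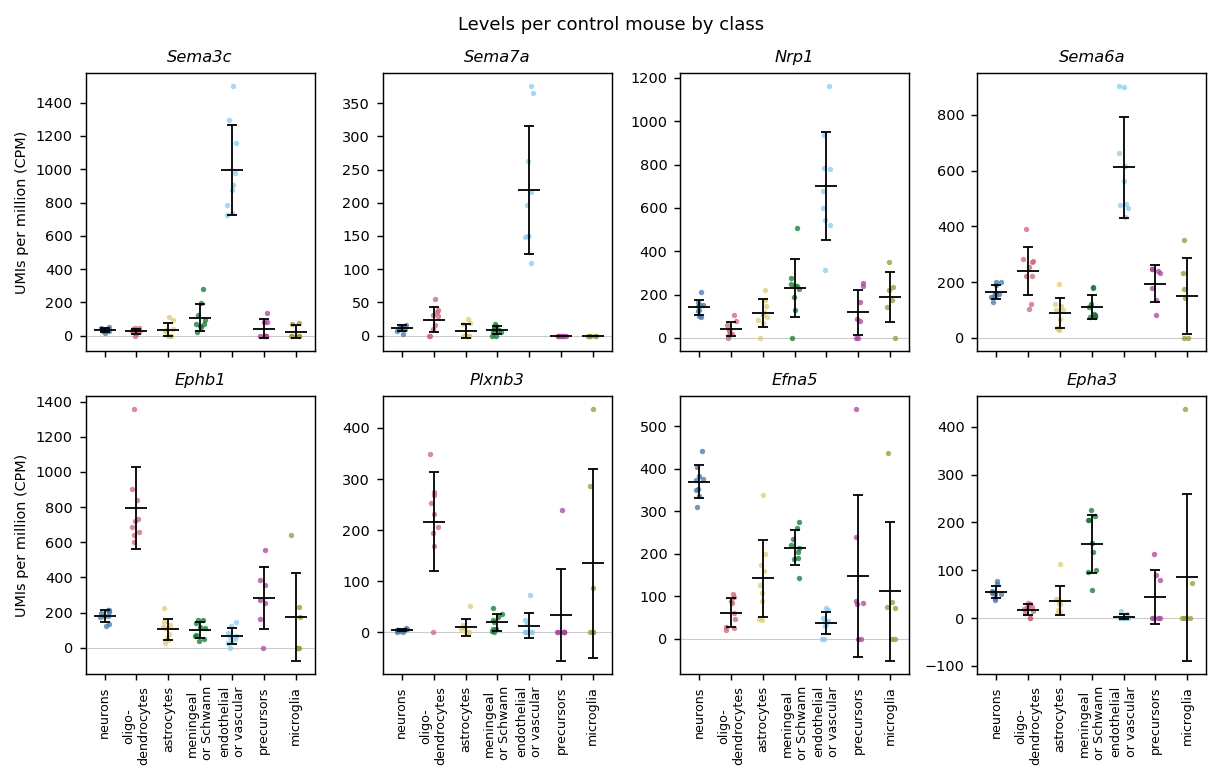
Level of 8 members in each control mouse (points, CPM on a linear axis) by class, with the mean and SD (black). Endothelial or vascular points of Sema3c and Sema7a lie above all others, and oligodendrocyte points of Ephb1 and most of Plxnb3 lie above neurons. Endothelial or vascular points spread widest for Sema3c and Sema7a, and those of the few precursor and microglia nuclei for Efna5.

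Among the Eph receptors, Epha5, Epha6, Epha10 and Ephb2 had their highest level in neurons, and others in meningeal, glial or vascular classes. Epha6 stood in neurons at lowest 617, median 708 and highest 1003 CPM (1.83 ± 0.13, adjusted p = 5.21e-27, edgeR), Ephb2 at lowest 91.0, median 139 and highest 192 CPM (2.65 ± 0.21, adjusted p = 5.06e-24) and Epha10 at 323 ± 54.8 CPM (2.59 ± 0.16, adjusted p = 3.05e-35). Ephb2 passed the filter on low counts mainly through neurons, so its p-value is no independent support. In formalin mice the Ephb2 mean was higher in precursors, at 152 ± 151 CPM against 120 ± 14.5 CPM in neurons. Epha10 has an inactive kinase domain, and Ephb2 is known for its contact with NMDA receptors at synapses. Epha5, a receptor of ephrin-As, was 405 ± 47.6 CPM in neurons and 332 ± 105 CPM in astrocytes, and passed the test in both (log2 1.43 and 1.26). Ephb6, which also lacks kinase activity, was highest in neurons at 10.5 ± 3.36 CPM.

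Ephb1, a receptor of ephrin-Bs, had its highest level in oligodendrocytes. Its control values there were lowest 603, median 722 and highest 1359 CPM, all above the precursors at 284 ± 177 CPM (n = 7) and well above neurons at 181 ± 32.5 CPM (2.44 ± 0.15, adjusted p = 4.71e-32, edgeR). Oligodendrocytes were highest in formalin (696 ± 144 CPM) and rotarod mice (1118 ± 265 CPM) as well. The Ephb1 locus overlaps several genes on the opposite strand, and since the strand of the counts is not given, their reads cannot be told apart.

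Epha3 and Epha7, receptors of ephrin-As, were highest in meningeal or Schwann nuclei. Epha7 stood there at lowest 61.1, median 168 and highest 239 CPM against 69.6 ± 11.7 CPM in neurons (2.31 ± 0.28, adjusted p = 1.59e-12), and Epha3 at lowest 59.2, median 158 and highest 226 CPM (2.71 ± 0.25, adjusted p = 4.21e-20, edgeR). Epha3 was lower in endothelial nuclei (-3.53 ± 0.71, adjusted p = 7.17e-06), at 2.48 CPM. Without the cx mice this call was lost. Epha4, which binds ephrins of both classes, was 152 ± 73.1 CPM in astrocytes and 137 ± 71.6 CPM in endothelial nuclei, both past the test (log2 1.48 and 1.32), the endothelial call not without the cx mice. Ephb4, the venous receptor of Efnb2, was highest in endothelial nuclei at 49.2 ± 35.1 CPM. Ephb3 had 10 UMIs in its highest class, astrocytes, Epha8 was at most 10.4 CPM, and Epha1 and Epha2 did not pass 2.14 CPM in any class.

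The ephrins were spread over neurons, glia and vessels. Efna5, a ligand of most EphA receptors, stood in neurons at lowest 311, median 374 and highest 441 CPM, above every mouse of the meningeal or Schwann class at 215 ± 40.1 CPM (2.04 ± 0.15, adjusted p = 4.65e-28, edgeR). Efnb3, the midline ephrin of the developing cord and a partner of Epha4 there, stood in oligodendrocytes at lowest 46.8, median 119 and highest 314 CPM and at 5.71 ± 3.48 CPM in neurons (3.27 ± 0.31, adjusted p = 9.74e-19, edgeR). The highest value came from control replicate 9, with under 10 oligodendrocyte nuclei. Each remaining class held at most 10 UMIs of Efnb3, so it passed the filter mainly through oligodendrocytes and its p-value is no independent support. Oligodendrocytes were highest for Efnb3 in both stimulated groups. Efnb2, the arterial ligand of Ephb4, was 45.9 ± 21.2 CPM in endothelial nuclei and 43.0 ± 22.9 CPM in meningeal or Schwann nuclei. Efna1 was 55.3 ± 66.3 CPM in endothelial nuclei, with 1 mouse far above the rest. Efna2, Efna3, Efna4 and Efnb1 gave 86, 55, 7 and 50 UMIs over the control mice and are too sparse to order the classes.

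The class comparisons were fitted over 3833 genes with the mouse as a block, and 24 of the 56 members passed its filter on low counts. A member that passed mainly through its highest class had to differ somewhere, so the counts of calls describe how steady the differences were over mice. The authors drew the classes from these same nuclei, and the p-values, including those given above for single members, are not independent evidence. Against the mean of the other classes, 11 members were higher and 6 lower in neurons, where 39.7% of all genes were higher and 20.1% lower (59.7% in all). In oligodendrocytes 9 were higher and 9 lower (20.2% and 25.6% of genes, 45.8% in all), and in astrocytes 4 and 7 (27.1% and 9.37%, 36.4% in all). Meningeal or Schwann nuclei had 10 higher and 6 lower (35.5% and 9.6%, 45.1% in all), and endothelial nuclei 9 and 7 (37.1% and 19.0%, 56.1% in all). Precursors and microglia had 1 call each, both higher, where 5.9% and 7.8% of genes were called. The median log2 difference of the tested members was 0.42 in neurons against 0.21 over all genes, and -0.62 in endothelial nuclei against 0.25. DESeq2's size factors in place of TMM moved the median of all genes by -0.70 in neurons, -0.31 in astrocytes, 0.41 in endothelial nuclei and 0.53 in microglia; of the calls, the neuronal Plxna2 changed sign with it.

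Cytoplasmic and co-receptor partners of the pathway were read from a list of 58 genes, of which 32 were tested. Of all genes, 39.7% were higher and 20.1% lower in neurons, 37.1% and 19.0% in endothelial nuclei and 20.2% and 25.6% in oligodendrocytes. The shares were 27.1% and 9.37% in astrocytes and 35.5% and 9.6% in meningeal or Schwann nuclei. In precursors 5.9% were called in all, and in microglia 7.8%. The partner counts were not tested against these shares. In neurons 13 were higher and 4 lower, among them Grip1, the adaptor of ephrin-B tails (log2 2.08), the exchange factor Kalrn (1.48) and Rhoa (-1.33). In endothelial nuclei 13 were higher and 9 lower, among them Kdr, the VEGF receptor that works with Nrp1 (7.72), and the Rac exchange factor Tiam1 (3.32). In oligodendrocytes 5 were higher and 14 lower, with Cntn2 (2.86) and Pak1 (2.20) higher and Farp1, which binds class A plexins, lower (-2.45). In astrocytes 13 were higher and 4 lower, among them Mical2 (2.64), Farp1 (2.53) and Chl1, a partner of neuropilins (2.36). Meningeal or Schwann nuclei had 10 higher, such as the collapsin response protein Dpysl3 (2.30), and 8 lower. Precursors had 0 higher and 3 lower, and microglia 2 and 1.

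Within neurons, dorsal and ventral families carried different receptors. The population codes of the authors were read as D for dorsal, M for mid, V for ventral, E for excitatory and I for inhibitory, with VC and VM kept as codes. In control mice 17 of 3072 genes tested were members, and 12 of them differed between the dorsal (DE and DI) and ventral (VE and VI) families, 6 in each direction, where 36.1% of all genes did, 17.7% higher and 18.4% lower dorsally. These families too were drawn from the same nuclei.

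The neuropilins split along this axis. Nrp1 stood at lowest 216, median 318 and highest 653 CPM in DE and at lowest 146, median 207 and highest 249 CPM in DI nuclei over 9 mice. In VE it was 37.9 ± 22.8 (n = 8) CPM and in VI 40.1 ± 27.3 (n = 8) CPM, and no VE or VI mouse reached the lowest DE or DI one (2.54 ± 0.15, adjusted p = 9.57e-29, edgeR). Nrp2 went the other way, with 41.9 ± 26.2 CPM in DE and 48.3 ± 19.8 in DI against 144 ± 100.5 in VE and 114 ± 73.1 in VI (-1.28 ± 0.21, adjusted p = 8.33e-07); its VE values, lowest 81.8, median 104 and highest 384 CPM, lay above every DE and DI mouse, while VI mice overlapped them. Nrp1 was also higher in DE than in DI (0.64 ± 0.16, adjusted p = 0.000936), a call lost in the stimulated mice.

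Of the plexins, Plxna2 was higher dorsally (1.04 ± 0.13, adjusted p = 1.67e-11), with 348 ± 65.7 CPM in DE against 131 ± 42.6 in VE, and higher in DE than in DI (0.87 ± 0.16, adjusted p = 4.1e-06, edgeR). Sema5a at 210.3 ± 89.1 CPM in DE and 148 ± 20.1 in DI was higher than at 65.0 ± 55.9 in VE and 75.5 ± 38.5 in VI (1.32 ± 0.18, adjusted p = 1.39e-09). Sema6d was likewise higher dorsally, at 712 ± 126 and 815 ± 198 CPM against 265 ± 106 and 284 ± 64.7 (1.51 ± 0.14, adjusted p = 3.95e-13), but mid inhibitory neurons (MI, 715 ± 212) and VC (663 ± 368) held as much. Sema3a was higher ventrally (-1.01 ± 0.26, adjusted p = 0.00085). Among families it was highest in VC, at lowest 35.9, median 94.8 and highest 187 CPM, against 21.7 ± 18.3 CPM in DE. For VC against the other families the difference was 1.54 ± 0.32 (adjusted p = 0.000166, edgeR), a call lost without the cx mice. VC also had the highest summed motor neuron markers (92.8 ± 99.9 CPM over 4 genes), which reached 0 in its lowest mouse.

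Among the Eph receptors, Epha10 (-0.88), Epha4 (-0.90), Epha6 (-0.47) and Epha5 (-0.35) were higher ventrally on the log2 scale, with edgeR adjusted p of 1.95e-11, 0.000553, 0.00209 and 0.0102; without the cx mice the Epha5 call was lost. Epha10 ran from 168 ± 54.1 CPM in DE and 299 ± 99.3 in DI to 378 ± 84.7 in VE and 454 ± 114 in VI, and was lower in DE than in DI (-0.78 ± 0.15, adjusted p = 3.66e-05). Epha4, whose loss in mice is known to disturb spinal locomotor circuits, was 77.9 ± 33.3 CPM in VI and 39.0 ± 21.2 in DE. Epha6 was higher in DE than in DI (0.75 ± 0.17, adjusted p = 0.000828), and mid inhibitory neurons held the highest mean, 1119 ± 555 CPM. The ephrin Efna5 was higher dorsally (0.44 ± 0.10, adjusted p = 0.000224), as was Ephb1 (0.34 ± 0.13, adjusted p = 0.0366), whose call was lost in 9 of 16 alternatives.

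Between excitatory and inhibitory families Epha3 alone was called, where 8.79% of genes were (1.02 ± 0.27, adjusted p = 0.00894, edgeR): it was 77.1 ± 33.4 CPM in DE and 48.7 ± 22.5 in DI, and 145 ± 87.2 (n = 7) in the single mid excitatory population. Without the cx mice this call was lost. DE against DI gave 4 calls (13.5% of genes), all named above. VC gave 4 (13.4%), namely Sema3a, Ephb1 (0.71), Sema6d (0.55) and Epha10 (-0.50); without the cx mice none of them was called, and in the stimulated mice 1 member was. No member was called between VE and VI (1.4% of genes, 3 members at an unadjusted p under 0.05, 1 called in stimulated mice) or for VM (0.13%, 1 member). Of the partners, 30 were tested, and dorsal neurons had 5 higher and 5 lower, near the 17.7% and 18.4% of all genes. Among the higher were Chn2 (1.01) and Chl1 (0.91), and among the lower Grip1 (-0.95) and Limk1 (-0.79).

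**Figure D3:**
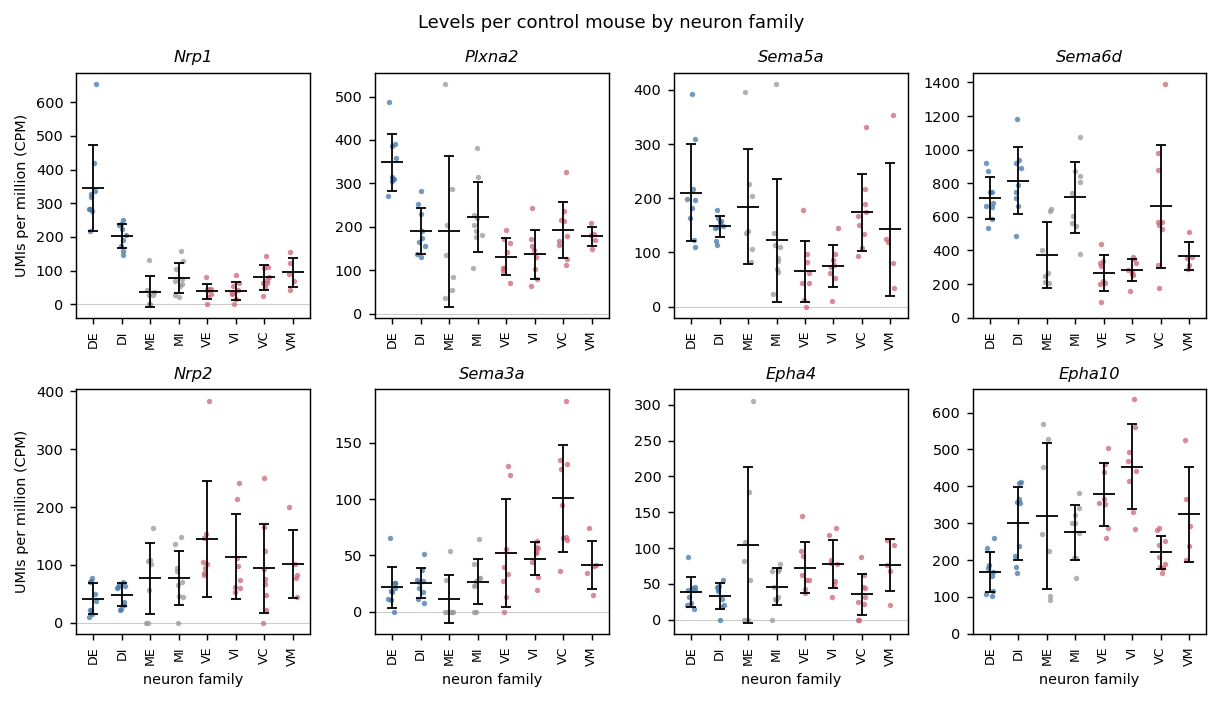
Level of 8 members in each control mouse with at least 5 nuclei of the family (points, CPM on a linear axis) by neuron family, blue for dorsal, grey for mid and red for ventral codes, with the mean and SD (black). The upper row shows members higher in dorsal than ventral families and the lower row members lower there.

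The 43 populations held 4280 neurons, and no test over mice was run on them; UMIs were pooled over the 24 mice with exact Poisson intervals that cover counting error only. Semaphorins headed the ratio of the highest to the median population. Sema3e reached 355 CPM (95% interval 305 to 409.6, 185 UMIs) in DI-6 against 129.6 CPM in MI-4 and a median population of 14.7; DI-6 held 30.6% of its population UMIs and was highest in control (306 CPM) and in stimulated mice (391 CPM). Sema3c, low in neurons as a class, reached 306 CPM (95% interval 244 to 377, 86 UMIs) in DE-5 and 188 CPM in DE-12, against a median of 20.3. Sema3f stood at 92.5 CPM (95% interval 57.2 to 141, 21 UMIs) in DI-1 and 80.8 CPM in DI-5, whose intervals overlap, against a median of 4.74.

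Sema5b was highest in DE-9 at 197 CPM (95% interval 149 to 256, 56 UMIs), and Sema5a in DE-11 at 513 CPM (95% interval 448 to 584, 225 UMIs) with DE-15 next at 446 CPM. DE-9 was also the highest population of Nrp1, at 803 CPM (95% interval 703 to 915, 228 UMIs), followed by DE-7 at 702 CPM. Sema6d was highest in DE-2 at 2213 CPM (95% interval 2001 to 2440.4, 400 UMIs), which overlapped MI-4 at 2112 CPM, and Sema3a in VE-1 at 109 CPM (95% interval 83.5 to 140.2, 61 UMIs). Sema3d in ME-1 (62.0 CPM), Sema4a in DE-14 (75.5) and Sema4b in VI-1 (65.8) were the remaining semaphorins.

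Of the receptors, Plxna2 was highest in DE-6 (799.6 CPM) and DE-5 (778 CPM), the latter being the Sema3c population, and Plxna4 in DE-3 at 902 CPM (95% interval 697 to 1147, 66 UMIs). Nrp2 was highest in MI-3 at 163 CPM (95% interval 136 to 193, 129 UMIs), close to VI-1. Epha3 reached 279 CPM (95% interval 208 to 366, 51 UMIs) in DE-1 against a median of 52.9, Epha10 621 CPM (95% interval 553 to 696, 302 UMIs) in VI-1, and Ephb1 449 CPM (95% interval 373 to 537, 122 UMIs) in DE-15. Epha4 was highest in ME-1 (119 CPM) and Epha7 in DE-7 (189.7 CPM). The ephrin Efna5 was highest in DI-3 at 945 CPM (95% interval 847 to 1052, 336 UMIs), with DE-7 at 820.3 CPM. Among the 20 members named by this ratio, the intervals of the highest and the next population did not overlap for Sema3e and Epha10 and overlapped for all others. Of these 20 members, 12 had the same highest population in control mice alone.

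**Figure D4:**
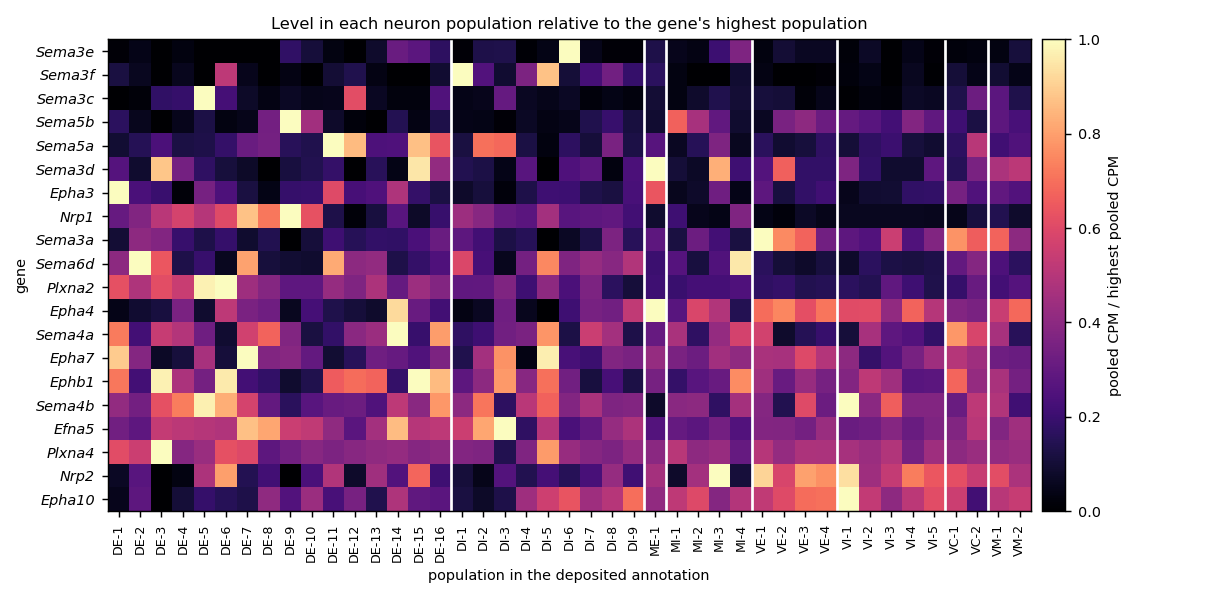
Pooled CPM of 20 members (rows) in each of the 43 neuron populations (columns, with white lines between families), as a share of the gene's own highest population. Sema3e, Sema3c and Sema3f are dark outside a few populations, Nrp1 is brighter over the DE columns, and Nrp2 and Epha10 are brighter over the V columns.

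Across the 43 populations, the 22 members with at least 500 UMIs gave 231 pairs with a median Pearson r of 0.00358. Epha10 and Nrp2 varied together (r = 0.626), as did Nrp1 and Plxna2 (r = 0.522) and Efna5 and Nrp1 (r = 0.446). Epha10 and Plxna2 (r = -0.618), Nrp1 and Nrp2 (r = -0.578) and Nrp1 and Sema3a (r = -0.57) ran opposite. The populations share mice, libraries and the dorsal to ventral contrast above, so these are descriptions with no test.

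The stimuli were compared over mice on summed counts, with 1 fit per class over all 3 groups and at least 10 nuclei per mouse. In neurons 33 members were among 9103 genes tested. No member was called for formalin against control or rotarod against control (0.0% of all genes in each, with 7 and 2 members and 766 and 782 genes at an unadjusted p under 0.05). DESeq2 also called no member. These comparisons share their controls.

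Between the 2 stimuli 196 genes (2.15%) differed in neurons and 2 of them were members, the ephrin-A Efna5 and the receptor Ephb2, both lower in formalin than in rotarod mice. Efna5 (chr17:62604184-62881317, GRCm38) stood in rotarod mice at 468, 517, 467, 405 and 422 CPM, in formalin mice at lowest 286, median 329 and highest 453, and in control mice at lowest 311, median 374 and highest 441. In rotarod mice 3 values lay above all others and the groups overlapped (-0.47 ± 0.11, adjusted p = 0.02, edgeR). Ephb2 (chr4:136647539-136835988) stood in rotarod mice at 216, 151, 209, 143 and 145 CPM, in formalin mice at lowest 99.5, median 120.4 and highest 142, and in control mice at lowest 91.0, median 139 and highest 192. All rotarod values lay above all formalin values, the closest pair by under 1 CPM, and control values overlapped both groups (-0.58 ± 0.14, adjusted p = 0.0208, edgeR).

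In oligodendrocytes, 14 members were among 3158 genes. None was called against control (0.0% of genes for formalin and 0.0317% for rotarod), and Ephb1 was the 1 member among 15 genes (0.475%) that differed between the stimuli. Ephb1 (chr9:101922128-102354693) stood in rotarod mice at 915, 1272, 1507, 890.3 and 1008 CPM, in formalin mice at lowest 499, median 656 and highest 962, and in 8 control mice at lowest 603, median 706 and highest 1359. The formalin and rotarod ranges overlapped at 1 formalin mouse (-0.73 ± 0.17, adjusted p = 0.0308, edgeR). In neurons the same gene had a log2 difference of -0.52 ± 0.15, adjusted p = 0.0588.

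Each of these 3 calls was lost under some alternatives. Removing a trend on gene span ended the neuronal calls (Efna5 -0.27, adjusted p = 0.245, and Ephb2 -0.41, adjusted p = 0.190, edgeR). In oligodendrocytes it left the count of called members at 1. Efna5, Ephb2 and Ephb1 span 277, 188 and 433 kb in the annotation. The median was 11.7 kb over the 30397 genes with a span, tested or not. Without rotarod replicate 2 the Efna5 call was lost, without rotarod replicate 1 or 3 the Ephb2 call, and without formalin replicate 3, 4 or 7 or rotarod replicate 2 or 3 the Ephb1 call. Formalin mice 1 to 5 each varied together with the mouse numbered 5 higher (mean r = 0.224), and merging these pairs ended all 3 calls. Nuclei of formalin mice held fewer UMIs (2568 per neuron, against 3159 in control and 3218 in rotarod mice) and formalin libraries more discarded barcodes (239 per mouse, against 109 and 89.6); the part of depth in these differences was not tested.

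**Figure D5:**
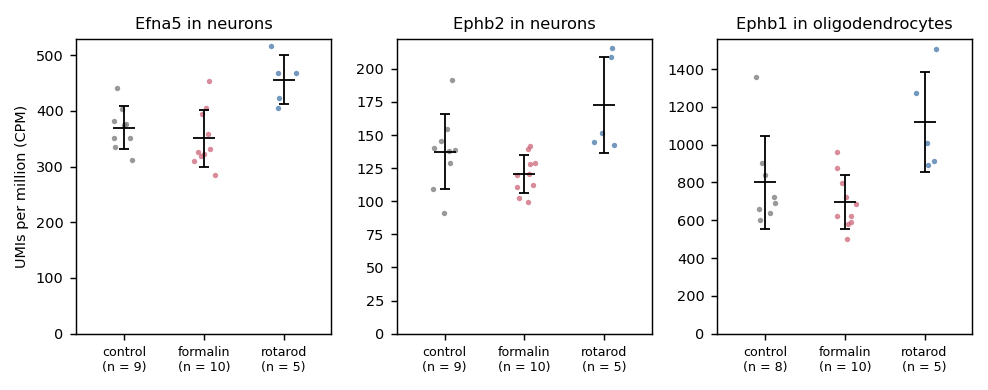
Level of Efna5 and Ephb2 in neurons and of Ephb1 in oligodendrocytes in each mouse (points, CPM on a linear axis from 0) by group, with the mean and SD (black). Rotarod mice have the highest mean in each panel, and control mice overlap both stimulated groups.

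The remaining values against control did not pass the test. In neurons the smallest p for formalin against control were those of Sema6c (log2 -0.72; 14.2 ± 4.86 CPM in formalin against 22.5 ± 10.3 in control), Sema3a (-0.46) and Sema5a (-0.32). For rotarod against control they were Efna5 (0.33 ± 0.11, adjusted p = 0.336), Ephb2 (0.32) and Epha10 (-0.22). Dorsal neurons, where 19 of 4713 genes tested were members, and ventral neurons, where 20 of 4991 were, gave no member call in any comparison; between the stimuli 0.361% and 0.02% of genes were called there, and 0.0% against control. In the dorsal families the smallest p for formalin belonged to Plxna2 (0.28), Ephb1 (-0.27) and Nrp1 (0.22), and for rotarod to Sema3c (-0.78), Efna5 (0.27) and Sema4d (0.36), with 1 and 2 members at an unadjusted p under 0.05. In the ventral families they belonged to Sema5a (-0.54), Efna5 (-0.31) and Epha10 (0.29) for formalin, with 4 of 20 members and 410 of 4991 genes at an unadjusted p under 0.05. For rotarod they belonged to Efna5 (0.28), Epha4 (0.31) and Ephb2 (0.23), with 0 members and 246 genes.

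In the other classes no member was called in any comparison, with 10 members tested in astrocytes (of 1804 genes), 17 in meningeal or Schwann nuclei (of 3273) and 9 in endothelial nuclei (of 1334). Of all genes, 0.388% were called in astrocytes for rotarod against control and 1.33% between the stimuli, and 0.0917% and 0.0611% in meningeal or Schwann nuclei. Formalin against control gave 0.0% in each class, as did every comparison in endothelial nuclei. The vascular Sema7a was 219 ± 97.0 CPM in control, 196 ± 109.9 in 9 formalin and 191 ± 35.5 in rotarod mice, and Sema6a 612 ± 181, 497 ± 143 and 647 ± 104. Efnb3 in oligodendrocytes was 116 ± 50.2 CPM in 8 control, 81.7 ± 21 in formalin and 68.4 ± 22.4 in rotarod mice, and Nrp1 in meningeal or Schwann nuclei 229 ± 135, 149.6 ± 58.8 and 169 ± 52.8. Of the partners, Grip1 alone was called under stimulation, lower in neurons of formalin than of rotarod mice (log2 -0.36, edgeR adjusted p = 0.033). It was 1 of 45 partners tested there, where 2.15% of all genes were called. The alternatives that ended the member calls in this comparison were counted for members only, and not for Grip1.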

How the data were processed

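The deposited matrix holds UMI counts per gene and nucleus that the authors made from Drop-seq reads, with 32962 genes and 750 barcodes in each of 24 mice. The submitters' processing notes name the builds mm10 and GRCm38 and the sources used here do not give the aligner, annotation, strand or use of intronic reads. Classes, families and populations are those of the authors' deposited annotation (1 population written DE12 was read as DE-12), doublets were not called again, and 0 columns of per-sample values were left unmapped. The design text counts 24 different mice, so replicates are taken as separate mice and the spread covers mice and libraries together. Formalin libraries 1 to 5 each varied together with the one numbered 5 higher, which no label explains; if those pairs are not independent, p-values with formalin mice are too small.

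Counts were summed per mouse and class, family or population. Levels are CPM of those sums, and Poisson intervals cover counting error only. Class and family differences were fitted in control mice with at least 5 nuclei, with the mouse as a block, and condition differences in mice with at least 10 nuclei, 1 fit over 3 groups, by edgeR 4.0.16 (quasi-likelihood test, TMM scaling, filterByExpr, Benjamini-Hochberg adjustment over all genes tested, threshold 0.05) with limma 3.58.1 in R 4.3.3. DESeq2 1.42.0, other scalings and filters, a trend on gene span and leaving out each mouse were the alternatives. The script was tested on simulated data. Other steps used Python 3.11.15, numpy 2.4.6, pandas 2.3.3, scipy 1.17.1 and matplotlib 3.10.9. Gene spans and positions come from GENCODE M21 (GRCm38) and promoters from RefSeq (GRCm38.p6), where 47 of the 56 members had an entry.

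The members and the list of 58 partner genes were chosen with earlier results of these data known. Values by mouse are given for up to 4 members per class, by the ratio of the highest class to the next, with at least 20 CPM there. Also named are up to 8 called members per family contrast and direction with at least 20 CPM, up to 20 members by the ratio of the highest to the median population with at least 20 UMIs, every member called between conditions or else the 3 with the smallest p, and up to 4 called partners per comparison.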

Additional observations from a re-analysis of the deposited data

Results flagged for a closer look

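Of 31 control groups tested, 8 held 1 mouse far from the others, where chance flags about 1 in 20. In astrocytes of control replicate 9, Ephb3 stood at 113 CPM and Efnb1 at 226 CPM. In control replicate 5, Efna1 stood at 225 CPM in endothelial or vascular nuclei, Sema3b at 171 CPM in meningeal or Schwann nuclei and Efna3 at 233 CPM in microglia. In control replicate 4, Plxnb1 stood at 532 CPM in microglia, Epha6 at 1003 CPM in neurons and Ephb1 at 1359 CPM in oligodendrocytes. Each was the highest value of its group, and the cause was not tested. Several of these groups held very few UMIs over all their control mice. In astrocytes Efnb1 had 2 UMIs, with 8 of 9 mice at 0, and Ephb3 had 10. In microglia Efna3 had 1 UMI, with 5 of 6 mice at 0, and Plxnb1 had 5. For such counts the rate of 1 in 20 need not hold.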

How the results depend on the processing

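Of the calls on single members, 45 of 80 between classes, 13 of 21 between families and 0 of 3 between conditions held under every alternative run; the cause was not tested except where stated. Leaving out 1 mouse gave 14 to 18 called members in neurons (17 with all), 15 to 17 in oligodendrocytes (18), 9 to 11 in astrocytes (11), 13 to 17 in meningeal or Schwann nuclei (16), 14 to 18 in endothelial nuclei (16), 1 to 2 in precursors (1), 0 to 2 in microglia (1), 4 to 5 for DE against DI (4), 9 to 14 for dorsal against ventral (12), 1 to 3 for excitatory against inhibitory (1) and 2 to 5 for VC (4). Between the stimuli it gave 1 to 4 in neurons (2), 0 to 2 in oligodendrocytes (1) and 0 to 1 in ventral neurons (0, with 1 without formalin replicate 10). Microglia fell to 0 without control replicate 2 or 7 and VC to 2 without control replicate 7.

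With no filter on low counts, which tests more genes, 33 members were called in neurons, 25 in meningeal or Schwann nuclei, 2 in precursors, 3 in microglia, 2 for excitatory against inhibitory and 0 between the stimuli in oligodendrocytes. DESeq2 called 0 in precursors, where it gave Sema5b no adjusted p, 2 in microglia, 2 for excitatory against inhibitory, and 4 in neurons and 2 in oligodendrocytes between the stimuli; its size factors in edgeR gave 2 for excitatory against inhibitory. In formalin and rotarod mice, 2 were called in precursors, 3 in microglia, 7 for DE against DI, 1 for VE against VI, 6 for excitatory against inhibitory and 1 for VC, and the calls of Nrp1 in meningeal or Schwann nuclei and in DE against DI were lost. Without the cx mice 0 were called in microglia, 0 for excitatory against inhibitory and 0 for VC, and 4 in neurons and 2 in oligodendrocytes between the stimuli; the calls of Epha3, Epha4 and Sema5a in endothelial nuclei, Epha5 for dorsal against ventral and Plxnb3 in neurons were lost. Between the stimuli in neurons, fitting only the 2 groups gave 4 calls, and removing the span trend or merging formalin pairs gave 0; merging also gave 0 in oligodendrocytes.

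Same-numbered formalin and rotarod mice did not vary together (correlations -0.115 to 0.0979 over 7740 genes, 1 of 5 closest to its own number). With the number as a replicate block, which uses fewer mice, 0 members were called between the stimuli in neurons (Efna5 adjusted p = 0.108 and Ephb2 0.0929, edgeR). All 56 members had a highest class in control mice, which was the same in formalin and rotarod mice for 30, and for 25 of the 43 at 20 CPM; leaving out 1 mouse kept 51 to 55 and 39 to 43. Of 20 populations, 12 were kept by the mean over mice with at least 3 nuclei and 12 in control mice.

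The sign of the log2 difference changed in neurons (Efnb3 0.063 at 10 nuclei, Plxna2 -0.15 with DESeq2 size factors and -0.12 with DESeq2, Sema4d -0.034 with DESeq2), in oligodendrocytes without the cx mice (Epha3 0.67), and in formalin and rotarod mice for Epha4 in meningeal or Schwann nuclei (-0.12), Plxnb3 in microglia (-0.17), Epha10 for VC (0.032) and, not called, Epha7 for VE against VI (-0.17). Of values not called, it also changed for Epha6 in VM without control replicate 6 (-0.014, with 0.34 without replicate 8 as the other end), Epha6 in astrocytes for formalin against control without the cx mice (0.0064) and Plxna4 in endothelial nuclei between the stimuli without rotarod replicate 2 (0.0049, with -0.54 without rotarod replicate 5 as the other end). No other comparison changed its count of calls by over 1.5 times. Precursors and microglia rested on 64 and 39 control nuclei.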

Other observations

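Barcodes that the authors discarded also carried the module, with the 56 rows summing to 3942 ± 394 CPM in control (n = 9), 3890 ± 339 CPM in formalin (n = 10) and 3301 ± 800 CPM in rotarod mice (n = 5).

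Several members are neighbours in the genome. On chromosome 3, Efna3 and Efna4 lie 10.4 kb apart and Efna1 and Efna3 32.8 kb apart. On chromosome 5, Sema3a lies 536.5 kb from Sema3d and 422.7 kb from Sema3e, and Sema3d and Sema3e were highest in meningeal or Schwann nuclei and Sema3a in astrocytes. On chromosome 9, Sema3b and Sema3f are 72.3 kb apart, and on X the oligodendrocyte member Plxnb3 lies 556.6 kb from Plxna3.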
